A study of Mus musculus with 12 samples.

Results

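The genes described here encode the machinery of regulated exocytosis in intestinal epithelial cells: the SNARE proteins, their Sec1/Munc18 partners, the priming and clamping factors, the Rab GTPases of secretory vesicles, and the synaptotagmins and synaptotagmin-like proteins. They were chosen by symbol from the families Syt, Sytl, Stx, Stxbp, Vamp, Rab3, Rab27, Cplx, Rims, Unc13 and Cadps together with Snap23, Snap25, Snap29 and Snap47. Of 77 symbols in these families, 66 reached a normalised count of at least 10 in at least 3 of the 12 libraries and are the members described. The table held 30265 symbols, of which 16577 passed the same minimum and were tested. Choosing genes by name uses no measured value apart from that minimum, but the families were picked with earlier results of these data known.

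RNA sequencing had been done on epithelial cells of the intestine of C57Bl/6 mice that carry a Sox9-GFP reporter, in which green fluorescence follows Sox9, a transcription factor of the crypt. Cells had been sorted into the populations Sox9 High, Sox9 Negative, Sox9 Sublow and Sox9 Low, with 3 libraries each (A, B and C), every library made from 12000 cells. All populations share the strain and the reporter, and the sources used here do not give the age of the mice, the segment of intestine or whether the letters stand for separate animals. The p-values therefore measure only the spread between these libraries, which may be technical. The libraries held 11.6 M to 17.0 M reads (M, 1e6), and a floor of 3 reads corresponded to 2.38 to 4.61 normalised counts. Sox9 itself averaged 20262 ± 1220.2 in High, against 604 ± 191 in Negative, 2084 ± 897 in Sublow and 6601 ± 921 in Low (SD, n = 3 each), which follows the names of the gates.

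Each gate is a mixture of cell types, read here from fixed marker lists. The 16 enteroendocrine markers summed to 596143 to 771728 normalised counts in High, against 514 to 2560 in Negative, 3748 to 10894 in Sublow and 68254 to 112674 in Low, and the 12 tuft markers to 165328 to 176530 in High, against 686 to 1288 in Negative, 1477 to 3917 in Sublow and 17490 to 27363 in Low. The 12 goblet markers summed to 9599 to 13614 in High, against 50291 to 108947 in Negative, 342795 to 595870 in Sublow and 143508 to 487346 in Low, so Sublow and Low are the goblet-rich gates, and Low B stood apart from Low A and Low C. The 6 stem and cycling markers summed to 4614 to 11652 in High, against 2528 to 12710 in Negative, 23108 to 59349 in Sublow and 88519 to 106873 in Low, which was the highest of the gates. The 10 Paneth markers summed to 1019 to 5098 in High, against 47162 to 124668 in Negative, 13043 to 18840 in Sublow and 19359 to 47290.2 in Low. In such bulk samples, fewer cells of a type and less RNA per cell cannot be told apart.

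Regulated exocytosis is the release of stored cargo on a signal, and it is how enteroendocrine cells release peptide hormones and goblet cells release mucin. A vesicle is brought to the plasma membrane by Rab3 and Rab27 and their effectors, primed by Munc13 and CAPS proteins, and fused when a vesicle SNARE of the VAMP family zippers with a syntaxin and a SNAP-25 family protein held by Munc18. Synaptotagmins sense calcium and complexins hold or assist the assembled SNAREs. Many of these proteins exist as a form typical of neurons and endocrine cells and as a form found in most cells.

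The promoters of 4 genes are printed as examples: the complexin genes Cplx1 and Cplx2 and the syntaxin gene Stx1a, all far higher in High, and Snap23, the broadly expressed relative of Snap25. Each is the 250 bases before the annotated start on the gene's own strand, 5′ to 3′, from RefSeq on GRCm38.p6, and capitals mark the letters CAGCTG, an E-box variant bound by bHLH transcription factors. They lie at chr5:108550028-108550277 on the minus strand for Cplx1, chr13:54302306-54302555 on the plus strand for Cplx2, chr5:135023232-135023481 on the plus strand for Stx1a and chr2:120567421-120567670 on the plus strand for Snap23.
Cplx1: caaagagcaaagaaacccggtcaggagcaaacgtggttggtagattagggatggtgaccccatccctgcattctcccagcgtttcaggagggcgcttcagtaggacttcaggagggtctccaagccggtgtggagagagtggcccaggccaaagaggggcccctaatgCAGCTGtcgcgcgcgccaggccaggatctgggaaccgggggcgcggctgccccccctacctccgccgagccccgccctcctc
Cplx2: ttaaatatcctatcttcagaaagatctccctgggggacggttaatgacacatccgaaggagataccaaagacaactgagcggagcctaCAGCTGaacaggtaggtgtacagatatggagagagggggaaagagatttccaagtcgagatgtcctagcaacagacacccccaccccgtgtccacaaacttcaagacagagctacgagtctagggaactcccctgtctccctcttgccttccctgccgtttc
Stx1a: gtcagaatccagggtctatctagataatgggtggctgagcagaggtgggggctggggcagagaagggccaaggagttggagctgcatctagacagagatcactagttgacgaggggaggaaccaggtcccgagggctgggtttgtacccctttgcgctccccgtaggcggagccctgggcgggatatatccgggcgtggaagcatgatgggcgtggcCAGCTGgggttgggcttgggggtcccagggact
Snap23: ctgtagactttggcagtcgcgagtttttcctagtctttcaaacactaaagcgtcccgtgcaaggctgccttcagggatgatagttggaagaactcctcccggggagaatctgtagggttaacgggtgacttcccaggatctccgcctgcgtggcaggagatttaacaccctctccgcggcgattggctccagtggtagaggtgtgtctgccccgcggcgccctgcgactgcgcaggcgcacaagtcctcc
The letters CAGCTG begin at -82 in Cplx1, -162 in Cplx2 and -33 in Stx1a relative to the start, and are not in the Snap23 window. Of the 66 members, 51 had a RefSeq promoter entry, with 60 entries in all. A gene was counted if any of its entries held the letters. For 49 of the 60 entries, bases just after the start lay in a GENCODE transcript of the gene. The letters CAGCTG, which read alike on both strands, were found for 9 of the 23 members with an entry that were higher in High than in each other population (39.1%). They were found for 5 of the 28 other members with an entry (17.9%) and for 14.6% of 11675 tested genes with an entry. Cplx1, Cplx2 and Stx1a are among these 9, so the 4 printed promoters do not represent the list. The other motifs were searched on both strands. The variant CAGATG was in 4.35% of High-enriched members, 10.7% of the other members and 12.4% of tested genes. The GC box CCGCCC was in 87.0% of High-enriched members, 50% of the other members and 59.6% of tested genes. The octamer ATGCAAAT was in 4.35% of High-enriched members, 0 of 28 other members and 1.61% of tested genes. The cAMP response element TGACGTCA was in 0 of 23 High-enriched members, 3.57% of the other members and 2.85% of tested genes, and the 16-letter RE1 core, the element of the repressor REST, in 0 of 23 High-enriched members, 0 of 28 other members and 0.0171% of tested genes. A match is a description of these letters in this window and says nothing of binding.

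High carried most of this machinery at a higher level than the goblet-rich gates. A call here is a limma adjusted p below 0.05 on log2(normalised count + 1), adjusted over all 16577 genes. Normalised counts are given for libraries A, B and C in turn or as mean ± SD (n = 3), and log2 differences, first population minus second, with ± their standard error. Against Low, 41 of the 66 members were higher in High, where 23.6% of all tested genes were, and 3 were lower, where 19.3% were. Against Sublow, 38 were higher (26.7% of all genes) and 8 were lower (25.3%). Against Negative, 37 were higher (28.8%) and 11 were lower (25.8%). The median log2 difference of the members was 0.71 against Low, 0.74 against Sublow and 0.74 against Negative, beside 0.10, 0.03 and 0.03 over all tested genes. The libraries of High did not overlap with the other population for 49 members against Low (60.7% of all genes), 49 against Sublow (58.6%) and 53 against Negative (64.9%), which is 74.2%, 74.2% and 80.3% of the members. Leaving out High B or High C reduced the 8 members lower than in Sublow to 5.

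A set of 31 members were higher in High than in each of the other 3 populations, a pattern that 15.6% of all tested genes showed. Of the 31, 24 kept this pattern under all 22 alternatives that change the values, Rims3 and Syt1 kept it under those that tested them, their means being below 50, and Rab3d, Stx6, Syt16, Unc13b and Vamp1 lost it under at least 1. They included all 4 Rab3 genes and all 3 Unc13 genes, 7 of 11 synaptotagmins, 3 of 14 syntaxins, 2 of 7 VAMP genes and 1 of 5 synaptotagmin-like genes. All 3 High libraries exceeded all 9 others for 34 members (21% of all genes). Sytl2 alone was lower in High than in each other population, where 8.84% of all genes were. High lay between Negative above it and Low below it, both called, for 3 members, Snap29, Stx3 and Stx8 (1.91% of all genes). Negative was higher than each other population for 6 members (9.33% of all genes) and lower than each for 12 (8.2%). No call in any of the 6 comparisons was made for 6 members (22.2%), among them Rims1, Rims4, Syt2, Syt15 and Vamp7. Of the 66 members, 51 had at least 10 in all 12 libraries. Syt16 reached 10 in High alone, and Syt1 in 4 libraries, those of High and Low C. Both passed the minimum only through High, so that their differences follow from how they passed.

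**Figure D1:**
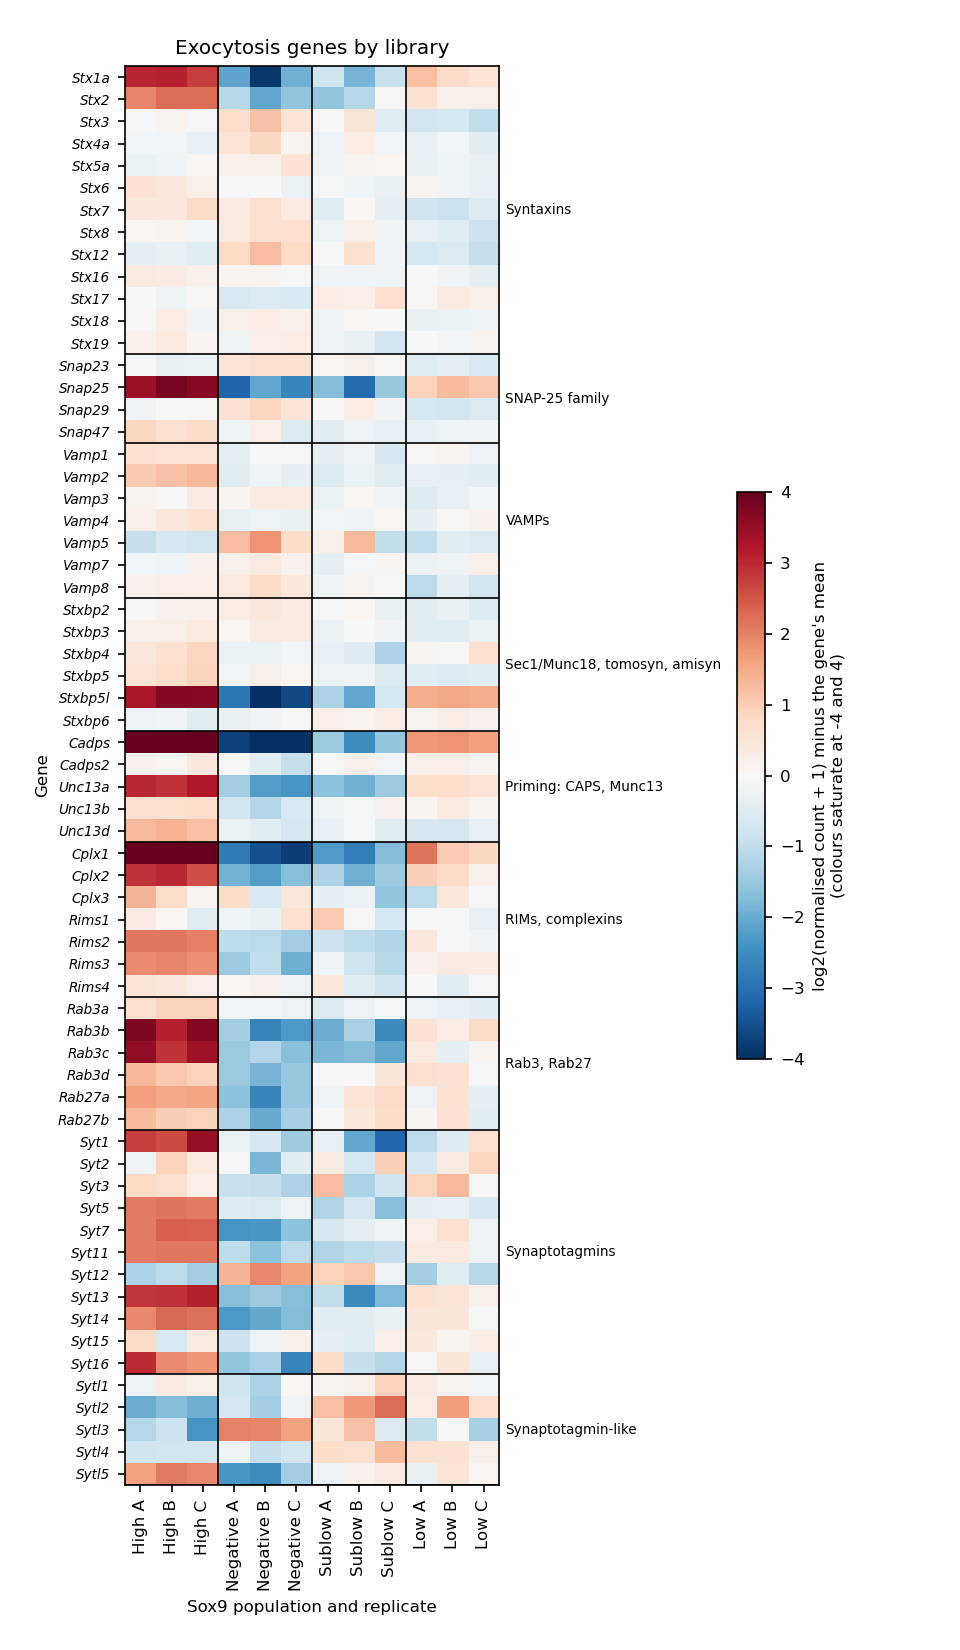
Each row is an exocytosis gene, for the members reported here, and each column a library, with colour showing log2(normalised count + 1) minus the gene's mean over the 12 libraries, saturated at -4 and 4. Cadps, Cplx1, Snap25, Stx1a and Stxbp5l are dark red in all 3 High libraries and blue in Negative and Sublow, while Sytl2 runs the other way.

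The SNARE partners of the plasma membrane split between neuroendocrine and general forms. Snap25, the SNAP-25 form of neurons and endocrine cells, had 812, 1051 and 927 in High, against 7.39, 16.9 and 11.4 in Negative, 21.4, 7.83 and 25.5 in Sublow and 143, 179.8 and 157 in Low. All High libraries lay above all others, Low lay between, and Negative and Sublow overlapped. The log2 difference of High was 6.23 ± 0.39 (limma adjusted p = 6.49e-08) against Negative, 5.74 ± 0.39 (limma adjusted p = 2.36e-07) against Sublow and 2.53 ± 0.39 (limma adjusted p = 0.000268) against Low. Summed over libraries there were 3138 reads in the 3 High libraries together and 28 in the 3 Negative libraries, a depth-corrected ratio of 82.1 (95% counting interval 56.7 to 124). Snap23, which does the same job in most cells, had 777, 668 and 686 in High, against 1187, 1289 and 1271 in Negative, 878, 977 and 852 in Sublow and 586, 626 and 543 in Low. All Negative libraries lay above the rest, and the spread over the 12 libraries was small beside that of Snap25. High differed by -0.82 ± 0.12 (limma adjusted p = 6.55e-05) against Negative, -0.35 ± 0.12 (limma adjusted p = 0.0248) against Sublow and 0.28 ± 0.12 (limma adjusted p = 0.0714) against Low, so that only the comparison with Low was not called. The call against Sublow was lost under 6 of the alternatives tried.

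Stx1a, the syntaxin that pairs with Snap25 in nerve terminals, followed Snap25. Stx1a had 676, 677 and 549.9 in High, against 18.0, 4.61 and 20.5 in Negative, 45.9, 21.2 and 43.1 in Sublow and 186, 137 and 116 in Low. High again lay above all 9 other libraries, and the order of the means, High, Low, Sublow and Negative, was that of Snap25. The log2 difference was 5.58 ± 0.46 (limma adjusted p = 6.07e-07) against Negative, 4.14 ± 0.46 (limma adjusted p = 1.17e-05) against Sublow and 2.13 ± 0.46 (limma adjusted p = 0.00261) against Low. Stx2, a plasma membrane syntaxin with wider expression, averaged 160.3 ± 17.7 in High, against 11.6 ± 4.08 in Negative, 21.3 ± 13.7 in Sublow and 46.1 ± 7.21 in Low, and its log2 differences were 3.72 against Negative, 3.02 against Sublow and 1.78 against Low, all called.

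Stx3, the syntaxin of the apical membrane in epithelia, was at its highest in Negative. Stx3 had 1156, 1318 and 1140.4 in High, against 1943, 2742 and 1752 in Negative, 1171, 1668 and 904 in Sublow and 715, 741 and 608 in Low. Negative lay above all other libraries and Low below all, while High and Sublow overlapped. High differed by -0.81 ± 0.22 (limma adjusted p = 0.00684) against Negative, -0.01 ± 0.22 (limma adjusted p = 0.978) against Sublow and 0.81 ± 0.22 (limma adjusted p = 0.00938) against Low. The endosomal syntaxin Stx12 showed the same order, averaging 1456 ± 95.3 in High, against 3636 ± 652 in Negative, 2170.1 ± 639 in Sublow and 1138 ± 134 in Low, with log2 differences of -1.31 against Negative, -0.54 against Sublow and 0.36 against Low. The Stx12 call against Sublow was lost under 8 alternatives. Both genes had the order of the enterocyte markers, whose 10 genes summed to 46124 to 60439 in High, against 664299 to 1017380 in Negative, 87649 to 537165 in Sublow and 22944 to 57955 in Low. The summed Paneth markers also had their highest mean in Negative, overlapping Low, with 9 of 10 lower in High than in Negative (25.8% of all genes). The part of the enterocyte or Paneth share in these levels was not tested.

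The remaining syntaxins had differences in either direction, Stx7 among them with the largest. Part of the Stx4a exons (5.2%) overlaps a gene on the other strand, and the sources used here do not give the strand used in counting. Stx4a, Stx5a and Stx8 were lower in High than in Negative, by log2 differences of -0.67, -0.46 and -0.54, as was Snap29 at -0.69. These 4 calls and that of Stx3 were lost when libraries were scaled to the same total. Stx6, a syntaxin of the trans-Golgi network, was higher in High by 0.53 against Negative, 0.58 against Sublow and 0.53 against Low, and Snap47 by 0.89 against Negative, 1.07 against Sublow and 0.96 against Low. Stx7, of late endosomes, had a log2 difference of 0.78 against Sublow and 1.26 against Low, both called, and 0.09 against Negative, which was not. Stx16 was called higher against Sublow (0.47) and Low (0.48), and Stx19 against Sublow (0.63). Stx17, a syntaxin of autophagosomes, was higher than in Negative (0.53) and lower than in Sublow (-0.46), and Stx18 had no call in the comparisons of High.

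Among the vesicle SNAREs, Vamp2, the form of synaptic vesicles and hormone granules, stood out. Vamp2 had 1172, 1262 and 1423 in High, against 397, 483 and 436 in Negative, 373, 465 and 401 in Sublow and 446, 440.2 and 406 in Low. All High libraries exceeded the other 9, which overlapped with one another. High differed on the log2 scale by 1.55 ± 0.13 (limma adjusted p = 9.84e-07) against Negative, 1.64 ± 0.13 (limma adjusted p = 1.08e-06) against Sublow and 1.57 ± 0.13 (limma adjusted p = 5.35e-06) against Low. Its relative Vamp3, found in most cells, averaged 1009.7 ± 126 in High, against 1103 ± 112 in Negative, 834 ± 101 in Sublow and 726 ± 109.8 in Low and was called against Low only, with a log2 difference of 0.48 ± 0.15 (limma adjusted p = 0.0241). That call was lost without High A, High C, Low A or Low B. Scaling to the same total or to shared quantiles added a call against Sublow. The Vamp3 difference from Negative was -0.13 ± 0.15 (limma adjusted p = 0.502), and scaling to the same total turned it to 0.36, so no direction is given. Vamp8, which serves granule release in exocrine glands, had 373, 396 and 400.4 in High, against 432, 555 and 442 in Negative, 297, 367 and 325 in Sublow and 161, 250.1 and 197 in Low. High was above every Low library and below every Negative library, with log2 differences of -0.28 ± 0.18 (limma adjusted p = 0.201) against Negative, 0.25 ± 0.18 (limma adjusted p = 0.261) against Sublow and 0.96 ± 0.18 (limma adjusted p = 0.000881) against Low.

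Vamp1 was higher in High by 0.67 against Negative, 0.94 against Sublow and 0.55 against Low. Vamp4, of the trans-Golgi network, was higher than in Negative (0.69) and Sublow (0.47), the second call being lost under 11 of the alternatives. Vamp7 had no call in any comparison. Vamp5, at a low level, had 17.1, 21.2 and 19.4 in High, against 79.2, 118 and 55.9 in Negative, 38.8, 83.9 and 16.7 in Sublow and 16.3, 24.0 and 22.2 in Low. High lay below every Negative library, at -2.02 ± 0.48 (limma adjusted p = 0.00332), and overlapped with Sublow and Low. Vamp5 was called lower in High than in Sublow with shared quantiles (-1.55), with DESeq2 (-1.26) or without Sublow C (-1.53).

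**Figure D2:**
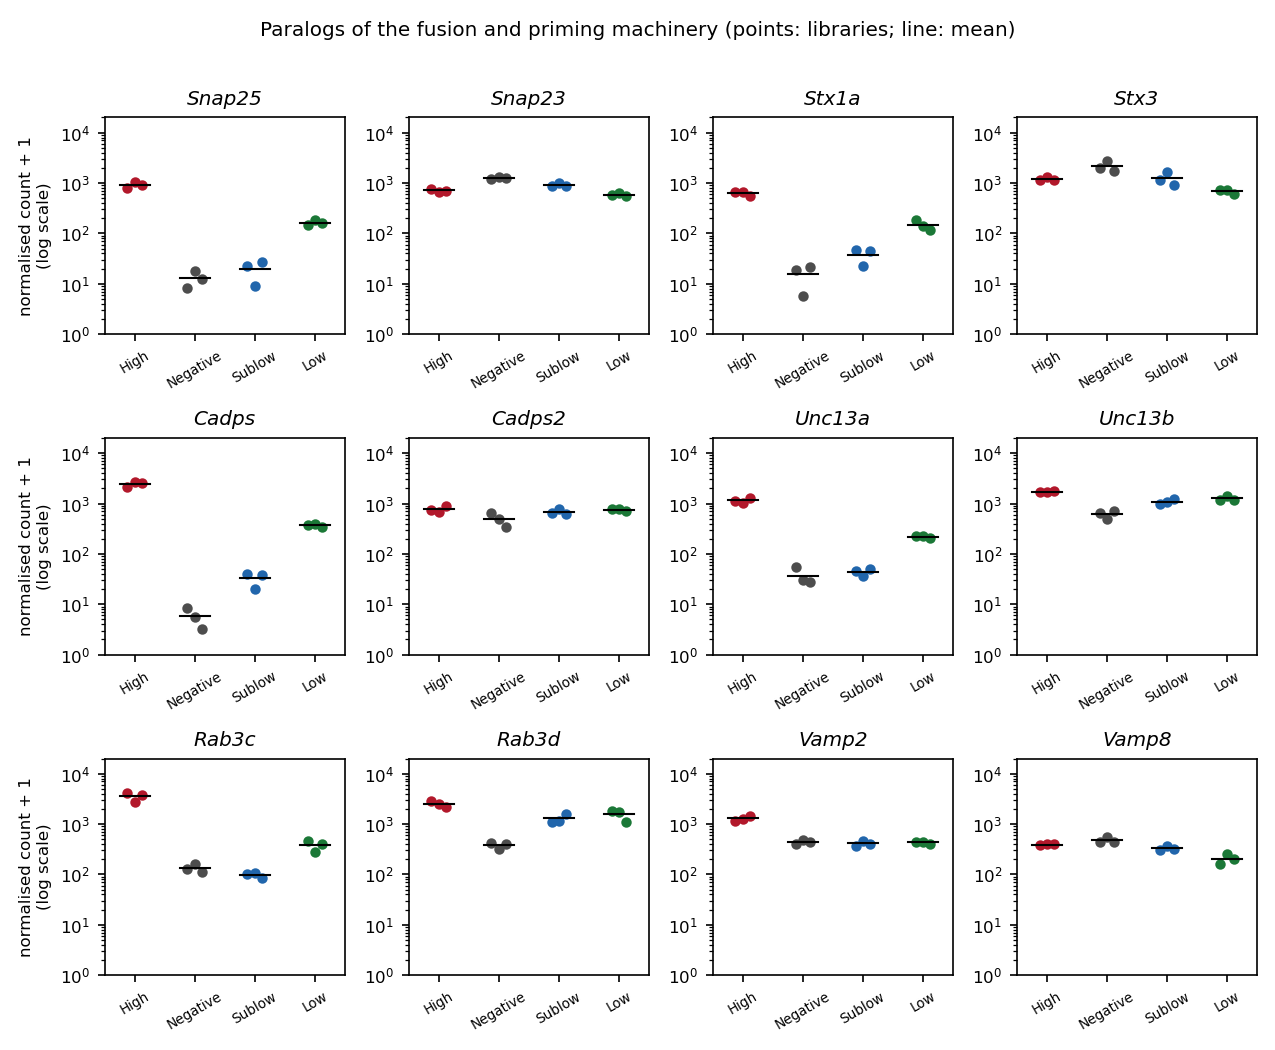
Points are libraries and lines are population means, with normalised count + 1 on a log axis and High, Negative, Sublow and Low from left to right. Snap25, Stx1a, Cadps, Unc13a and Rab3c spread over wide ranges with High on top, whereas Snap23 stays between 543 and 1289 and Cadps2 between 343 and 878.

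Sec1/Munc18 proteins hold syntaxins and guide SNARE assembly. Stxbp2 (Munc18-2), which works with Stx3 and Stx11 at apical membranes and in cytotoxic granules, averaged 1485 ± 90.4 in High, against 1723 ± 101 in Negative, 1258 ± 155 in Sublow and 1004 ± 90.4 in Low and was called against Low only, at 0.57 ± 0.12 (limma adjusted p = 0.00303). A Stxbp2 call against Sublow was added by scaling to the same total (0.44) or to shared quantiles (0.39). Stxbp3 (Munc18-3) averaged 1002 ± 64.4 in High, against 988 ± 112 in Negative, 747 ± 63.9 in Sublow and 622 ± 49.2 in Low, with 0.42 ± 0.13 (limma adjusted p = 0.0143) against Sublow, 0.69 ± 0.13 (limma adjusted p = 0.000978) against Low and no call against Negative. The Stxbp3 call against Sublow was lost without High C or without Sublow A. Scaling to the same total added a Stxbp3 call against Negative, at 0.51.

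The tomosyns, which bind syntaxin and SNAP-25 and hold back fusion, were both higher in High. Stxbp5l (tomosyn-2) had 1583, 2081 and 2043 in High, against 21.1, 6.15 and 12.6 in Negative, 69.4, 38.0 and 100.2 in Sublow and 447, 474 and 449 in Low. No population overlapped with another. The log2 difference was 7.19 ± 0.39 (limma adjusted p = 2.14e-08) against Negative, 4.86 ± 0.39 (limma adjusted p = 8.66e-07) against Sublow and 2.05 ± 0.39 (limma adjusted p = 0.00113) against Low. Stxbp5 (tomosyn-1) was broader, averaging 2514 ± 309 in High, against 1604 ± 179 in Negative, 1222 ± 176 in Sublow and 1118 ± 38.5 in Low, and its log2 differences were 0.65 against Negative, 1.04 against Sublow and 1.16 against Low, all called. Stxbp6 (amisyn) was lower than in Sublow (-0.52) and in Low (-0.50), and Stxbp4 was higher than in Negative (0.85) and Sublow (1.34).

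Cadps (CAPS1), a priming factor of dense-core vesicles, had the largest log2 difference of any member between High and Negative. Cadps had 2141, 2657 and 2597 in High, against 7.39, 4.61 and 2.28 in Negative, 38.8, 19.0 and 36.9 in Sublow and 371, 384 and 346 in Low. No population overlapped with another, and Low stood above Sublow and Sublow above Negative. High minus the other gate came, in log2, to 8.84 ± 0.33 (limma adjusted p = 2.45e-09) against Negative, 6.30 ± 0.33 (limma adjusted p = 3.29e-08) against Sublow and 2.74 ± 0.33 (limma adjusted p = 5.53e-05) against Low. There were 8330 reads in the 3 High libraries together and 12 in the 3 Negative libraries, a depth-corrected ratio of 508 (95% counting interval 291 to 984). Its paralog Cadps2 (CAPS2) was nearly level, with 749, 692 and 878 in High, against 659, 484 and 343 in Negative, 653, 765 and 611 in Sublow and 778, 786 and 706 in Low. High overlapped with Sublow and with Low. Its difference from Negative was 0.68 ± 0.20 (limma adjusted p = 0.0125), which was not called without High C (0.0530) or without Negative C (0.0533), both limma adjusted p. Against Low it was 0.02 ± 0.20 (limma adjusted p = 0.935).

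The Munc13 genes were all higher in High, to different degrees. Unc13a (Munc13-1), the priming factor of most synapses, had 1134, 1033 and 1289 in High, against 52.8, 29.2 and 26.2 in Negative, 43.9, 35.8 and 50.1 in Sublow and 227, 229.5 and 203 in Low. Negative and Sublow overlapped and the other populations did not. The log2 difference was 5.02 ± 0.25 (limma adjusted p = 1.1e-08) against Negative, 4.71 ± 0.25 (limma adjusted p = 3.12e-08) against Sublow and 2.38 ± 0.25 (limma adjusted p = 1.81e-05) against Low. Unc13b (Munc13-2) averaged 1727 ± 60.1 in High, against 613 ± 119 in Negative, 1081 ± 138 in Sublow and 1269.7 ± 135 in Low, and the difference was 1.51 ± 0.16 (limma adjusted p = 4.54e-06) against Negative, 0.68 ± 0.16 (limma adjusted p = 0.00301) against Sublow and 0.45 ± 0.16 (limma adjusted p = 0.0359) against Low. The last of these calls was lost under 7 alternatives, where its adjusted p reached 0.118. Unc13d (Munc13-4), which works with Rab27a in blood and secretory cells, had 478, 507 and 453 in High, against 163, 141 and 121 in Negative, 153, 184 and 143 in Sublow and 123, 121 and 155 in Low. Here the other 9 libraries overlapped, and the difference was 1.76 ± 0.17 (limma adjusted p = 3.07e-06) against Negative, 1.58 ± 0.17 (limma adjusted p = 1.15e-05) against Sublow and 1.85 ± 0.17 (limma adjusted p = 9.89e-06) against Low.

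Of the 3 complexins, Cplx1 and Cplx2 were higher in High than in each other population. Cplx1 had 704, 565 and 471 in High, against 3.17, 1.54 and 1.14 in Negative, 5.11, 3.35 and 7.91 in Sublow and 129.6, 58.2 and 50.7 in Low. Negative lay at or under the floor of 3 reads, with 1951 reads in the 3 High libraries together and 5 in the 3 Negative libraries, a depth-corrected ratio of 286 (95% counting interval 122 to 881). The fitted log2 difference, which here depends on the added 1, was 7.66 ± 0.42 (limma adjusted p = 2.56e-08) against Negative, 6.53 ± 0.42 (limma adjusted p = 1.66e-07) against Sublow and 2.96 ± 0.42 (limma adjusted p = 0.000163) against Low. Cplx2, the complexin of neurons and endocrine cells alike, had 7706, 8375 and 6181 in High, against 281, 219.9 and 318 in Negative, 445, 276 and 387 in Sublow and 2006, 1756 and 1199.8 in Low. High exceeded every other library, and so did Low when set against Negative and Sublow. The difference was 4.76 ± 0.23 (limma adjusted p = 9.55e-09) against Negative, 4.34 ± 0.23 (limma adjusted p = 3.28e-08) against Sublow and 2.19 ± 0.23 (limma adjusted p = 1.97e-05) against Low. Cplx3, known from retinal ribbon synapses, averaged 22.1 ± 9.61 in High, against 15.3 ± 6.90 in Negative, 7.59 ± 3.55 in Sublow and 11.5 ± 5.85 in Low and was called against Sublow only (1.45).

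RIM proteins tether vesicles and calcium channels at release sites through Rab3. Rims2 had 2755, 2762 and 2586 in High, against 314, 298 and 241 in Negative, 357, 311 and 277 in Sublow and 866, 606 and 571 in Low. High was above all others and Low above Negative and Sublow, with differences of 3.25 ± 0.17 (limma adjusted p = 1.99e-08) against Negative, 3.10 ± 0.17 (limma adjusted p = 4.74e-08) against Sublow and 2.01 ± 0.17 (limma adjusted p = 5.5e-06) against Low. Rims3, a short form, averaged 62.8 ± 2.74 in High, against 5.46 ± 2.14 in Negative, 10.1 ± 3.77 in Sublow and 20.2 ± 1.49 in Low, and its log2 differences were 3.36 against Negative, 2.58 against Sublow and 1.59 against Low, all called. Rims1 averaged 19.4 ± 5.48 in High, against 20.6 ± 7.85 in Negative, 23.8 ± 14.5 in Sublow and 17.8 ± 2.44 in Low and Rims4 78.1 ± 7.42 in High, against 60.7 ± 6.4 in Negative, 51.5 ± 24.7 in Sublow and 52.6 ± 7.73 in Low, and neither was called in any comparison.

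All 4 Rab3 genes, GTPases of regulated secretory vesicles, were higher in High, but they differed in where the rest of their signal lay. Rab3c had 4186, 2676 and 3757 in High, against 127, 159.9 and 112 in Negative, 101, 107 and 85.2 in Sublow and 467, 281 and 398 in Low. High was far above all, Low was next and Sublow was lowest on average. In log2, High differed by 4.72 ± 0.23 (limma adjusted p = 9.17e-09) against Negative, 5.14 ± 0.23 (limma adjusted p = 1.05e-08) against Sublow and 3.21 ± 0.23 (limma adjusted p = 1.48e-06) against Low. Rab3b was low outside High and Low, with 214, 138 and 203 in High, against 5.28, 1.54 and 2.28 in Negative, 3.06, 5.59 and 1.76 in Sublow and 22.9, 18.8 and 26.2 in Low. Over the libraries there were 627 reads in the 3 High libraries together and 10 in the 3 Sublow libraries, a depth-corrected ratio of 55.9 (95% counting interval 30.2 to 117). Part of the Rab3b exons (9.0%) overlaps a gene on the other strand. Its fitted log2 differences were 5.61 ± 0.44 (limma adjusted p = 4.14e-07) against Negative, 5.44 ± 0.44 (limma adjusted p = 9.47e-07) against Sublow and 2.96 ± 0.44 (limma adjusted p = 0.000216) against Low.

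Rab3a, the form of synaptic vesicles, had 161, 192 and 194 in High, against 95.04, 96.9 and 87.9 in Negative, 68.4, 87.2 and 97.5 in Sublow and 87.1, 82.2 and 75.3 in Low. The other 9 libraries overlapped, and the differences were 0.96 ± 0.19 (limma adjusted p = 0.000848) against Negative, 1.11 ± 0.19 (limma adjusted p = 0.000338) against Sublow and 1.15 ± 0.19 (limma adjusted p = 0.000427) against Low. Rab3d, the form of zymogen and mucin granules, had 2915, 2440.0 and 2223 in High, against 415, 317 and 406 in Negative, 1113, 1145 and 1614 in Sublow and 1830.0, 1745 and 1098 in Low. High was highest and Negative lowest without overlap, while Sublow and Low overlapped. The fitted log2 difference of High was 2.73 ± 0.22 (limma adjusted p = 4.27e-07) against Negative, 0.98 ± 0.22 (limma adjusted p = 0.0022) against Sublow and 0.72 ± 0.22 (limma adjusted p = 0.0165) against Low, the last of which was not called without High A or without Low C.

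Rab27a and Rab27b, which dock granules through synaptotagmin-like effectors, were present in the goblet-rich gates as well as in High. Rab27a had 1719, 1571 and 1657 in High, against 175, 87.7 and 192 in Negative, 492, 809 and 935 in Sublow and 468, 843 and 425 in Low. High lay above and Negative below all others, and Sublow and Low overlapped. The difference was 3.51 ± 0.33 (limma adjusted p = 1.96e-06) against Negative, 1.19 ± 0.33 (limma adjusted p = 0.00919) against Sublow and 1.58 ± 0.33 (limma adjusted p = 0.0022) against Low. Rab27b had 3227, 2669 and 2553 in High, against 563, 334 and 532 in Negative, 1343, 1818 and 2232 in Sublow and 1465, 2027 and 1008 in Low. High again lay above and Negative below all others, with differences of 2.59 ± 0.27 (limma adjusted p = 4.91e-06) against Negative, 0.67 ± 0.27 (limma adjusted p = 0.0554) against Sublow and 0.96 ± 0.27 (limma adjusted p = 0.0129) against Low. The Rab27b call against Low was lost without High A or without Low C, and a difference from Sublow was called under 8 alternatives, among them without Sublow C, at 0.84 (limma adjusted p = 0.0299), and without Low B, Low C or Negative B.

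Synaptotagmins held both strong enrichment in High and its opposite. Syt7, a slow calcium sensor with high affinity that serves hormone granules, had 2264, 2821 and 2769.9 in High, against 102, 104.6 and 172 in Negative, 343, 404 and 475 in Sublow and 642, 826 and 468 in Low. High was above all, and Negative below all. In log2, High differed by 4.40 ± 0.24 (limma adjusted p = 2.48e-08) against Negative, 2.69 ± 0.24 (limma adjusted p = 2.13e-06) against Sublow and 2.05 ± 0.24 (limma adjusted p = 4.28e-05) against Low. Part of its exons (5.1%) overlaps another gene on the other strand. Syt13, an atypical member that does not bind calcium and is known from pancreatic endocrine cells, had 1535, 1565 and 1783 in High, against 63.4, 75.4 and 62.8 in Negative, 107, 34.7 and 58.9 in Sublow and 316, 297 and 242 in Low. Negative and Sublow overlapped, Low was above both, and High differed by 4.58 ± 0.31 (limma adjusted p = 1.21e-07) against Negative, 4.73 ± 0.31 (limma adjusted p = 1.78e-07) against Sublow and 2.52 ± 0.31 (limma adjusted p = 5.65e-05) against Low.

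Syt1, the fast calcium sensor of synapses, was low and passed the minimum only through the High libraries. It had 58.6, 52.5 and 98.8 in High, against 6.34, 4.61 and 2.28 in Negative, 6.13, 1.12 and 0 in Sublow and 3.27, 5.14 and 12.7 in Low. High lay above all others, which overlapped at a few reads, with 239 reads in the 3 High libraries together and 7 in the 3 Sublow libraries, a depth-corrected ratio of 30.4 (95% counting interval 14.6 to 76.5). Its fitted differences were 3.73 ± 0.70 (limma adjusted p = 0.000596) against Negative, 4.79 ± 0.70 (limma adjusted p = 0.000113) against Sublow and 3.27 ± 0.70 (limma adjusted p = 0.00256) against Low. Syt5 averaged 302 ± 7.38 in High, against 51.3 ± 7.02 in Negative, 31.4 ± 11.4 in Sublow and 51.1 ± 5.97 in Low, with log2 differences of 2.54 against Negative, 3.28 against Sublow and 2.55 against Low. Syt11, which lacks calcium binding, averaged 486 ± 9.56 in High, against 48.4 ± 11.2 in Negative, 54.9 ± 5.44 in Sublow and 130.2 ± 28.4 in Low, with 3.33 against Negative, 3.13 against Sublow and 1.92 against Low. Syt14 averaged 298 ± 37.8 in High, against 15.8 ± 3.38 in Negative, 49.9 ± 3.22 in Sublow and 82.8 ± 16.8 in Low, with 4.16 against Negative, 2.55 against Sublow and 1.85 against Low, and all 9 of these differences were called.

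Syt16, just inside the minimum, had 47.8, 22.1 and 20.3 in High, against 1.06, 1.54 and 0 in Negative, 9.19, 2.24 and 1.76 in Sublow and 5.45, 7.71 and 3.96 in Low, and its call against Low was lost without High A or without Low C. Syt12, a calcium-independent member, went against the family. Syt12 had 21.7, 24.9 and 19.4 in High, against 136, 205 and 164 in Negative, 102, 115 and 44.8 in Sublow and 19.6, 37.7 and 23.8 in Low. High and Low overlapped and both lay below Negative and Sublow, at -2.87 ± 0.36 (limma adjusted p = 2.44e-05) against Negative, -1.84 ± 0.36 (limma adjusted p = 0.00106) against Sublow and -0.24 ± 0.36 (limma adjusted p = 0.627) against Low for High. Part of its exons (17.2%) overlaps a gene on the other strand. Syt2 and Syt15 had no call in any comparison, and Syt3 was called against Negative only (1.60).

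**Figure D3:**
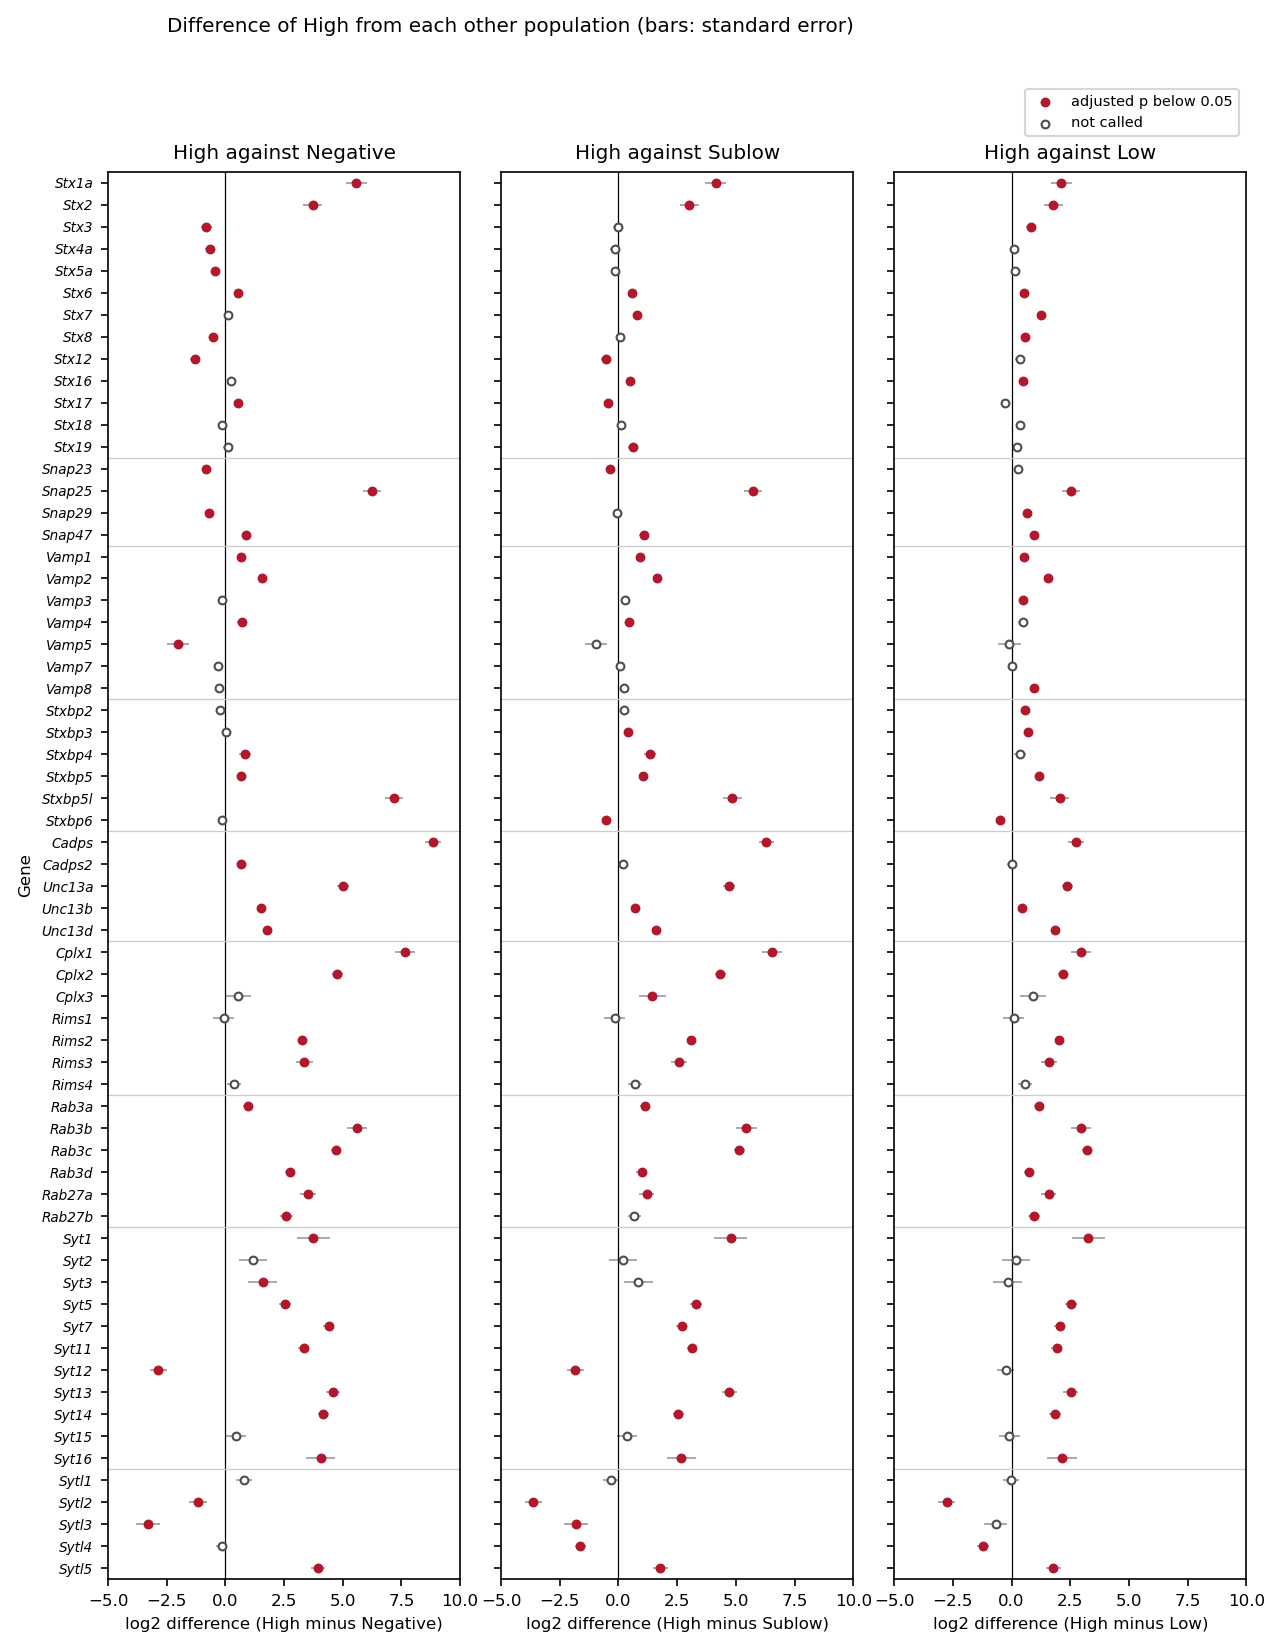
Points give the log2 difference of High minus Negative, Sublow and Low for the members reported here, bars are standard errors, and filled points have an adjusted p below 0.05. Cadps reaches 8.84 against Negative, 6.30 against Sublow and 2.74 against Low, and Sytl2 lies left of 0 in all 3 panels.

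Sytl genes encode effectors that link Rab27 to the plasma membrane, and this family contained the gene that High held below every other gate. Sytl2, known in gastric surface mucous cells as a Rab27 effector of mucin granules, had 146, 175 and 148 in High, against 361, 226 and 532 in Negative, 1348, 1946 and 2757 in Sublow and 710.2, 1862 and 925 in Low. All High libraries lay below the other 9. High differed on the log2 scale by -1.17 ± 0.37 (limma adjusted p = 0.0185) against Negative, -3.63 ± 0.37 (limma adjusted p = 6.73e-06) against Sublow and -2.77 ± 0.37 (limma adjusted p = 0.000113) against Low. Leaving out Low B, the Low library richest in goblet markers, gave -2.37 (limma adjusted p = 0.000438) against Low. The weaker call against Negative was lost under 4 alternatives, among them scaling to the same total, where the difference was -0.68 with an adjusted p of 0.146.

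Across the 9 libraries outside High, the rank of Sytl2 was the rank of the summed goblet markers in 9 of 9, and over all 12 libraries in 10, with no gap over 1 rank. This is a description of libraries that share their cell mixture. Rab27a had the goblet rank in 5 of the 9 libraries and Rab27b in 2 of the 9, and over all 12 both were displaced by the High libraries, at the bottom of the goblet order and the top of the Rab27 order. Sytl4 had the goblet rank in 2 of the 9 libraries, with gaps of up to 2 ranks, and in 3 of all 12, with gaps of up to 4, and Rab3d in 1 of the 9, with gaps of up to 5. What part the goblet share plays in these levels was not tested.

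Sytl4 (granuphilin), a Rab27 effector of insulin granules that binds syntaxin, had 62.2, 64.5 and 65.0 in High, against 98.2, 56.9 and 65.0 in Negative, 179.7, 168 and 261 in Sublow and 164, 163 and 128 in Low. High and Negative overlapped below Sublow and Low. High differed by -0.16 ± 0.24 (limma adjusted p = 0.612) against Negative, -1.62 ± 0.24 (limma adjusted p = 0.000133) against Sublow and -1.22 ± 0.24 (limma adjusted p = 0.00154) against Low. Scaling to shared quantiles added a Sytl4 call against Negative, at -0.85. Sytl3, also a Rab27 effector, was highest in Negative, with 18.9, 24.0 and 7.60 in High, against 175, 172 and 134 in Negative, 61.3, 99.5 and 29 in Sublow and 21.8, 42.8 and 16.6 in Low. Its difference was -3.30 ± 0.50 (limma adjusted p = 0.000118) against Negative, -1.82 ± 0.50 (limma adjusted p = 0.00927) against Sublow and -0.68 ± 0.50 (limma adjusted p = 0.301) against Low. Sytl5 was the Sytl gene enriched in High, averaging 667 ± 109 in High, against 44.3 ± 20.04 in Negative, 194 ± 39.9 in Sublow and 198 ± 59.8 in Low, with log2 differences of 3.95 against Negative, 1.79 against Sublow and 1.78 against Low, all called. Sytl1 averaged 96.5 ± 20.05 in High, against 58.8 ± 29.1 in Negative, 121 ± 39.8 in Sublow and 96.2 ± 15.1 in Low and was not called in High against any population. A Sytl1 call against Negative was added by scaling to the same total (1.27) and by leaving out Negative C (1.16) or Sublow C (0.79).

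**Figure D4:**
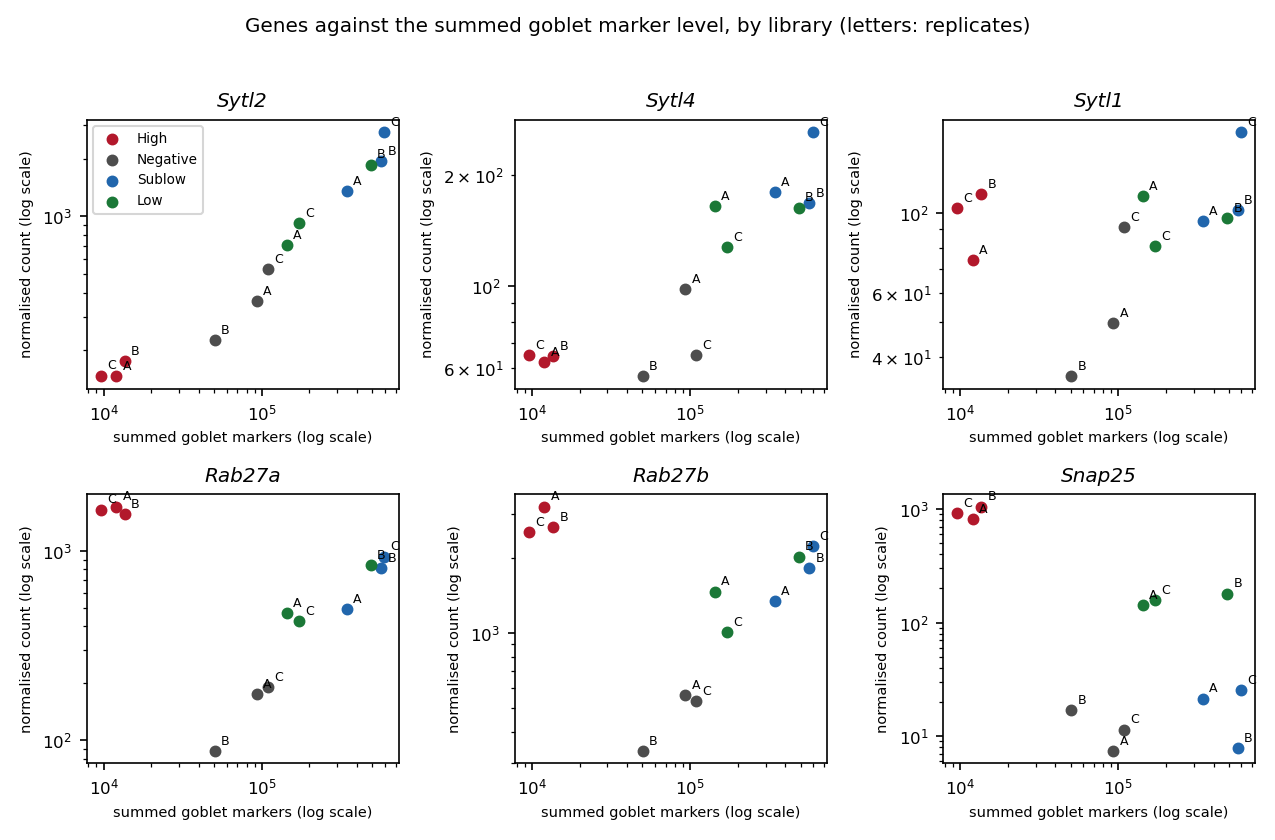
Each panel sets a gene's normalised count against the summed normalised counts of 12 goblet markers, both on log axes, with 1 lettered point per library. Sytl2 climbs with the goblet sum from the High libraries to Sublow C, whereas Rab27a, Rab27b and Snap25 have the High libraries at the upper left.

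The make-up of families was compared per kilobase of exon, using the joined exons of GENCODE vM21, since read counts grow with transcript length. The sources used here do not name the annotation behind the counts. Snap25 made up 45.2% ± 5.09 in High, against 0.593% ± 0.217 in Negative, 1.29% ± 0.704 in Sublow and 14.7% ± 1.2 in Low of the sum of Snap23 and Snap25 (SD, n = 3 each). Cadps made up 66.9% ± 3.51 in High, against 0.577% ± 0.145 in Negative, 2.96% ± 1.22 in Sublow and 23.6% ± 0.254 in Low of both Cadps genes. In High, then, Snap25 and Cadps were each a large part of their pair, and in Negative and Sublow each was a small one.

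Unc13a made up 33.8% ± 2.9 in High, against 4.68% ± 1.39 in Negative, 4.04% ± 0.725 in Sublow and 17.1% ± 1.39 in Low of the 3 Unc13 genes. In High, Unc13d had the largest mean share, at 38.0% ± 3.08, and Unc13b had 28.2% ± 0.234. In the Rab3 family, Rab3c made up 28.4% ± 3.99 in High, against 7.73% ± 1.98 in Negative, 2.38% ± 0.654 in Sublow and 7.37% ± 2.5 in Low, while Rab3d held 58.5% ± 4.48 in High, against 62.5% ± 4.95 in Negative, 86.6% ± 1.83 in Sublow and 82.7% ± 4.35 in Low and was the largest share in every population. Of Vamp1, Vamp2, Vamp3, Vamp7 and Vamp8 together, Vamp2 made up 32.1% ± 1.5 in High, against 12.7% ± 0.0254 in Negative, 15.5% ± 0.479 in Sublow and 18.2% ± 2.62 in Low. Vamp3 had the largest mean share of these in every population, with 33.2% ± 1.89 in High. Rab27a made up 61.8% ± 2.34 in High, against 46% ± 3.93 in Negative, 53% ± 2.48 in Sublow and 51.3% ± 3.89 in Low of both Rab27 genes, so that neither form was a small part of the pair in any gate.

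**Figure D5:**
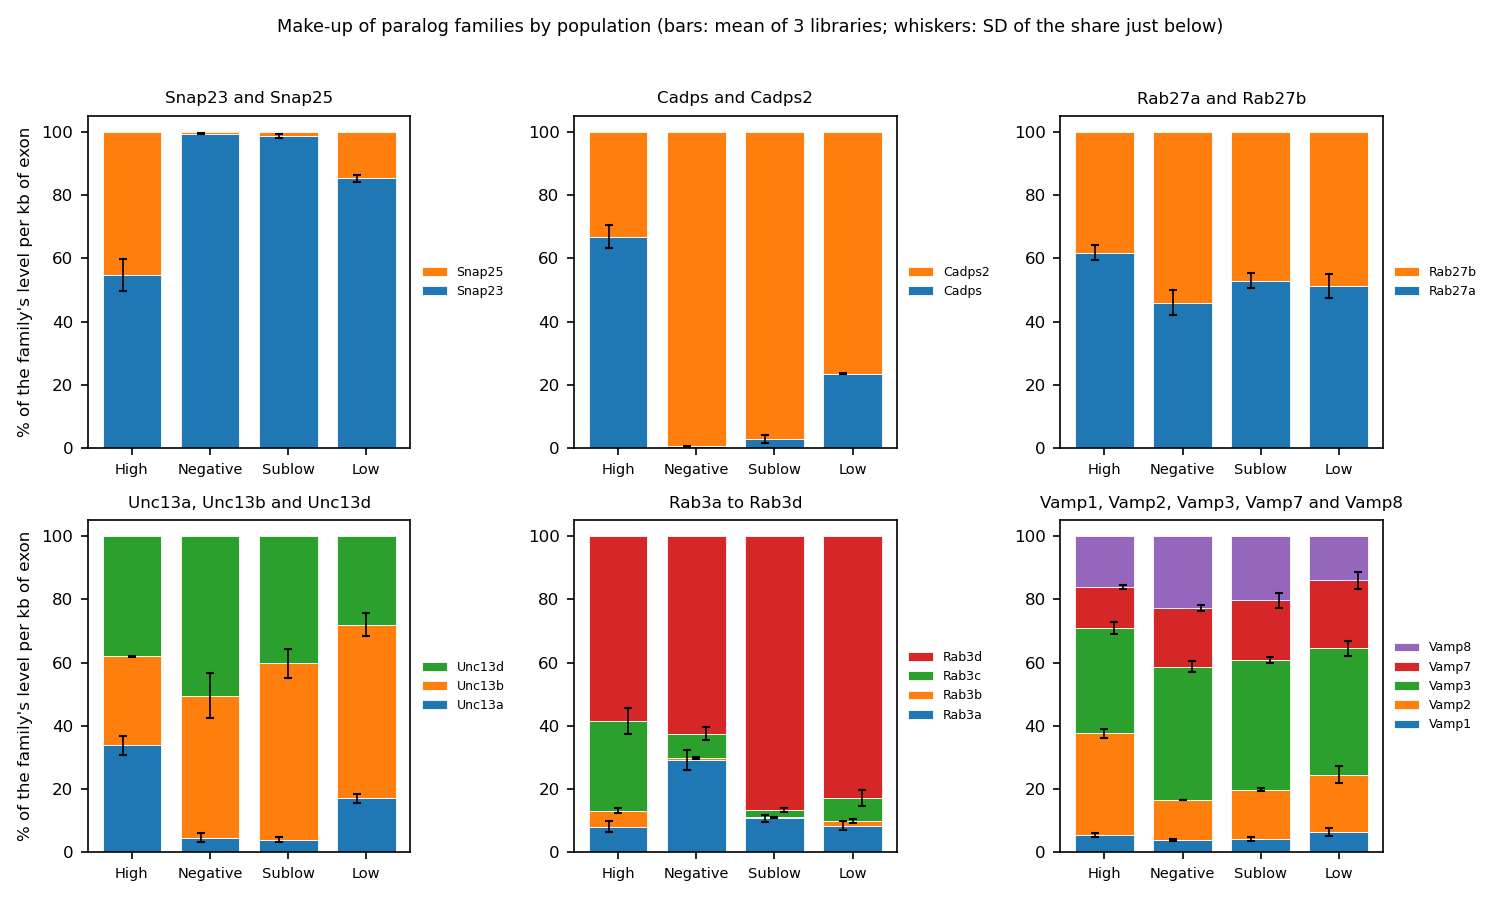
Stacked bars show each gene's mean share (%) of its family's normalised count per kilobase of exon in High, Negative, Sublow and Low, with whiskers giving the SD of 3 libraries for the share just below. Snap25 reaches 45.2% and Cadps 66.9% in High.

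Several High-enriched members, among them Snap25, Stx1a, Cadps and Cplx1, lay in Low between High and both Negative and Sublow. Others did not: Vamp2 averaged 430 in Low, against 439 in Negative and 413 in Sublow. Rab3a averaged 81.5 in Low, against 93.3 in Negative and 84.4 in Sublow. Against Low, Sublow was higher for 6 members (13.3% of all genes) and lower for 15 (10.7%). The lower ones included Cplx1 (-3.57), Cadps (-3.56), Snap25 (-3.20) and Stxbp5l (-2.81) as log2 differences. The count of 6 became 10 without Sublow C. The 6 were Snap23, Snap29, Stx3, Stx12, Vamp8 and Syt12, all between 0.62 and 1.60.

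Negative was higher than Low for 17 members (26.8% of all genes) and lower for 28 (30.3%). The higher ones included Stx12 (1.67), Stx3 (1.62), Snap29 (1.33) and Snap23 (1.09), and the lower ones Rab27a (-1.94) and Rab27b (-1.63). Against Sublow, Negative was higher for 11 (12.7%) and lower for 15 (15.1%), most of all for Cadps (-2.54) and Sytl2 (-2.46). The count of 11 ran from 1 without Negative B to 16 without Sublow B, and was 3 without Sublow A, 3 without Sublow C and 7 without High A or without Negative C. The 3 comparisons of High share the High libraries, and each gate enters 3 comparisons, so the values of a gene are set side by side and not counted as separate support.

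Other genes of the pathway, 91 listed with 84 tested, are given as counts. High was higher for 31 (23.6% of all genes) and lower for 6 (19.3%) against Low, higher for 32 (26.7%) and lower for 15 (25.3%) against Sublow, and higher for 33 (28.8%) and lower for 19 (25.8%) against Negative. Higher in High than in each other population were 23 of the 84, a pattern of 15.6% of all genes. Rab3 and Rab27 effectors and regulators contributed 3 of 15, and SNARE recycling and chaperone genes 2 of 8. Exocyst subunits contributed 1 of 11, ferlins 0 of 5 and SNAREs outside the named families 0 of 12. Active zone scaffolds contributed 7 of 11, among them Rimbp2, which links RIMs to calcium channels, at 6274 ± 133 in High, against 26.1 ± 13.5 in Negative, 121 ± 61.1 in Sublow and 1007 ± 180.0 in Low. Baiap3, a Munc13 relative of dense-core vesicle traffic, averaged 2262 ± 325 in High, against 15.1 ± 8.30 in Negative, 31.4 ± 19.3 in Sublow and 443 ± 134 in Low. Vesicle membrane proteins contributed 10 of 22, among them Ptprn (IA-2), a membrane protein of dense-core vesicles, at 2491 ± 278 in High, against 10.4 ± 4.87 in Negative, 26.5 ± 19.2 in Sublow and 298 ± 60.1 in Low, with differences of 7.85 ± 0.46 (limma adjusted p = 4.36e-08) against Negative, 6.77 ± 0.46 (limma adjusted p = 2.62e-07) against Sublow and 3.07 ± 0.46 (limma adjusted p = 0.000244) against Low.

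The calcium-binding SNARE partner Doc2b differed by 5.53 against Negative, 4.47 against Sublow and 2.05 against Low, and the Rab3 exchange factor Madd by 2.0 against Negative, 2.03 against Sublow and 1.75 against Low, all called. Nsf, the ATPase that takes SNARE complexes apart after fusion, averaged 1949.8 ± 109 in High, against 1193 ± 48.7 in Negative, 984 ± 71.6 in Sublow and 958 ± 67.2 in Low. Nsf does not represent its list of 8 SNARE recycling and chaperone genes. Against Negative, 3 of the 8 were higher in High (28.8% of all genes) and 1 was lower (25.8%), with a median log2 difference of -0.05. The list of Rab3 and Rab27 effectors and regulators had 8 of 15 higher (23.6% of all genes) and 2 lower (19.3%) in High against Low. Against Sublow it had 6 higher (26.7%) and 2 lower (25.3%), and against Negative 6 higher (28.8%) and 0 lower (25.8%). The 2 lower against Low were also the 2 lower against Sublow, both Rab27 effectors. Mlph (melanophilin) differed by -1.32 against Sublow and -0.70 against Low, and Myrip by -1.97 against Sublow and -1.41 against Low. Other Rab27 effectors were higher in High: Rph3al (Noc2) differed by 3.33 against Negative, 2.47 against Sublow and 1.43 against Low, all called, and Exph5 by 0.80 against Sublow and 0.81 against Low, both called. The ferlin Fer1l6 averaged 33.5 ± 11.3 in High, against 479 ± 152 in Negative, 2475 ± 858 in Sublow and 1258 ± 984 in Low, with differences of -3.80 ± 0.48 (limma adjusted p = 2.24e-05) against Negative, -6.16 ± 0.48 (limma adjusted p = 6.67e-07) against Sublow and -4.97 ± 0.48 (limma adjusted p = 1.09e-05) against Low. SNAREs outside the named families were lower in High than in Negative for 8 of 12 (25.8% of all genes), among them Bet1 (-1.55) and Vti1b (-0.99).

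Some markers of cells other than epithelium were also higher in High. The 14 enteric neuron and glia markers summed to 3261 to 4138 in High, against 365 to 389 in Negative, 292 to 472 in Sublow and 774 to 1224 in Low. Of the 10 tested, 7 were higher against Low (23.6% of all genes). Most of the sum in High was Ret (1430.4 ± 126), Nefm (1096 ± 234) and Nefl (570.5 ± 85.8), while Uchl1 averaged 87.6 ± 22.5 and Elavl4 52.9 ± 6.73. The defining glial factor Sox10 lay at 0.845 to 4.61 in High, near the floor. Leukocyte markers summed to 4213 to 6903 in High, against 408 to 452 in Negative, 703 to 1247 in Sublow and 1473 to 1594 in Low. Of the 7 tested, 2 were higher against Low, Ptprc and Kit, which is near the share of all genes (23.6%). Ptprc averaged 2469 ± 779 in High, against 79.7 ± 2.54 in Negative, 53.1 ± 0.528 in Sublow and 89.2 ± 26.8 in Low, and Kit 2585 ± 730.1 in High, against 191 ± 27.9 in Negative, 747 ± 306 in Sublow and 1331 ± 46.9 in Low. Lyz2, with 2.53 to 11.1 in High, against 14.8 to 32.3 in Negative, was lower in High. Stroma and muscle markers summed to 3714 to 5607 in High, against 1219 to 1366 in Negative, 809 to 1124 in Sublow and 1235 to 1855 in Low. Most of that sum in High was Vim, with 2870.3 to 4578 in High, against 0 to 19.4 in Negative, 0 to 72.1 in Sublow and 421 to 1029 in Low. Vim alone of the 6 tested was higher against Negative (28.8% of all genes) and Sublow (26.7%), and it was not called against Low, at 2.60 ± 1.46 (limma adjusted p = 0.173). Col1a2, at 115 ± 29.3 in High, against 250.4 ± 31.2 in Negative, 159.8 ± 54.7 in Sublow and 101 ± 20.04 in Low, was lower in High than in Negative. The part of these cells in the levels of exocytosis genes was not tested.

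Of the 77 symbols, 11 stayed under the minimum: Cplx4, Stx11, Stxbp3-ps, Syt4, Syt6, Syt8, Syt9, Syt10, Syt17, Unc13c and Vamp7-ps. Just inside the minimum, the third-highest library held 13.1 for Syt3, 20.3 for Cplx3 and 20.3 for Syt16, and just outside it 9.51 for Unc13c and 8.17 for Stx11. Syt17 reached 18.4 in High B, Stx11 12.6 and Unc13c 12.7 in their highest libraries, and Syt4 8.45 in High C.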

How the data were processed

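Total RNA of sorted intestinal epithelial cells had been depleted of ribosomal RNA, converted to libraries (SMARTer Pico v2 kit of Clontech) and read single-end, per the labels' protocols. The authors deposited 1 table of signal values per gene symbol and library. In each library these were whole multiples of 1 step (tolerance 0.01), so they are read counts divided by a size factor, and the recovered counts gave median-of-ratios size factors that equal the deposited scaling. Aligner, genome build, annotation, strand of counting and the authors' tests: not given in the sources used here. Depth sets the precision: intervals and floors cover counting error only.

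Genes with at least 10 in at least 3 libraries were tested as log2(value + 1) with limma 3.58.1 (trend, 1 fit of 12 libraries, R 4.3.3), with Benjamini-Hochberg adjustment over all genes and a threshold of 0.05. A log2 difference on this scale understates the change of low genes. The members, gene lists, marker lists and alternatives were chosen with earlier results of these data known. Full values are given for members called in the same direction in High against each other population without overlap (up to 14 higher, the largest mean differences first), for a fixed core of SNARE, Munc18, Munc13, CAPS, complexin, RIM, Rab and synaptotagmin genes, and for the 5 members most reduced in High. Other members named were chosen to account for the list. As alternatives, the replicate letter was added as a block, and fits were made with pseudocounts of 0.5 and 5, no filter or a minimum mean of 50, libraries brought to 1 total or to shared quantiles, edgeR 4.0.16 (quasi-likelihood) and DESeq2 1.42.0 on the recovered counts, with just the 6 libraries compared, and without each library in turn. A recomputed median-of-ratios scaling equals the deposited one, and its results are not counted as an alternative. A few genes counted among the members or markers are not reported here by name.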

Additional observations from a re-analysis of the deposited data

How the results depend on the processing

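Among single genes described in full, 2439 of 2496 values under the alternatives kept their side of the threshold, and their direction where called. Where neither fit made a call, the direction was not compared. Of the rest, 33 lost their call, 23 gained one and 1 reversed with a call. The reversed value was the difference of Vamp3 between High and Negative, at 0.36 with libraries scaled to the same total. That scaling moved the median of all genes by 0.49 in this comparison. The same scaling moved the median by 0.20 for High against Sublow, -0.27 for Sublow against Low, -0.56 for Negative against Low and -0.29 for Negative against Sublow. With it, the members lower in High became 4 against Sublow and 5 against Negative, those higher in Negative than in Low became 10, and those higher in Negative than in Sublow became 1. Fitting the 6 libraries of a comparison alone left 5 members lower in High than in Sublow, 0 higher in Negative than in Sublow by limma (13 at an unadjusted p below 0.05, 15 by DESeq2 on all libraries) and 1 lower. Without the filter, and with edgeR, 7 members were higher in Negative than in Sublow. The cause was not tested. Leaving out each library in turn gave 5 to 8 members lower in High than in Sublow, 5 to 10 higher in Sublow than in Low and 1 to 16 higher in Negative than in Sublow. The counts of members higher in High ran from 34 to 42 against Low, 35 to 38 against Sublow and 34 to 38 against Negative.

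Same-letter libraries deviated together at correlations of 0.0521 to 0.341 over 18 pairs, and 12 of 12 libraries correlated best with their own letter, a hint from the data and not the design. With the letter as a replicate block, 10 members were higher in Sublow than in Low, and 32 were higher in High than in each other population. Depth limits genes near the floor, such as Cplx1, Rab3b, Syt1 and Syt16 outside High, whose fitted differences depend on the added 1. With 3 libraries a population, small differences could not be told from the spread, and a gate's mixture of cell types was not resolved.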
